A study of Mus musculus with 8 samples.

Results

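The enzymes that methylate histone H3 on lysine 9 (H3K9), and the proteins that work with them, were followed in mouse pre-iPSCs, which are partly reprogrammed cells arrested short of the induced pluripotent state. The genes are Ehmt1, Ehmt2, Setdb1, Suv39h2, Atf7ip, Trim28 and Wiz, and they were found through every probe set that the platform annotation gives to 1 of these symbols alone. That gave 16 probe sets of 7 genes among 45037 probe sets on the array, with 6 probe sets for the siRNA targets Ehmt1, Ehmt2 and Setdb1 and 10 for the other genes. The 8 arrays fall into 3 groups, and all cells had the same embryonic stem cell medium, with siRNA present for 3 days before RNA was taken. Control cells (n = 3) had siRNA to luciferase, 3XHMT cells (n = 2) had siRNA to Ehmt1, Ehmt2 and Setdb1 at once, and Cbx3 cells (n = 3) had siRNA to Cbx3, which encodes HP1 gamma. Arrays of a group are named biological replicates in the labels, without saying what was repeated or whether 1 clone was used, so p-values measure the spread between these arrays, which may be technical.

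H3K9 methylation marks heterochromatin and silenced genes. EHMT1 (GLP) and EHMT2 (G9a) form a heterodimer that places H3K9me1 and H3K9me2, and the zinc finger protein WIZ binds and stabilizes that dimer. SETDB1 places H3K9me3 at retrotransposons and silenced genes, is recruited by TRIM28 (KAP1) through KRAB zinc finger proteins, and is kept stable and nuclear by ATF7IP. SUV39H2, with its relative SUV39H1, places H3K9me3 at pericentromeric repeats, and HP1 proteins bind the mark. The comparisons ask how far the 3 targeted transcripts were lowered, and whether transcripts of the untargeted enzyme and cofactors differed.

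Each value is a log2 signal made by the authors with RMA. The arrays share no depth measure, so their number limits the precision. The probe set for the middle of 18S ribosomal RNA, an array control, divided the arrays into 3 sets that cut across the groups. No label names these sets. The probe set for the 3′ end of 18S does not separate the lower 2 of them (10.62 to 11.08 against 10.35 and 10.63). The probe set for the 5′ end separates all 3 (10.66 to 11.14, 11.75 and 11.77, and 12.86 to 13.02). Every value with the block rests on the division by the middle probe set. Control 3, 3XHMT 2 and Cbx3 3 stood at 9.98 to 10.17 on the log2 scale, control 1 and Cbx3 1 at 11.2 and 11.5, and control 2, 3XHMT 1 and Cbx3 2 at 12.57 to 12.82. Several of the genes described here moved with these sets, so values within a set, and with the set as a block in the fit, stand beside the main values. Of the reprogramming factors, Pou5f1 was bright in control cells (12.99), while Lin28a was dim (4.58). Of the late pluripotency markers, Nanog and Dppa4 were below the array medians in control cells (5.13 and 5.52), and the other 5 were above them, from Dppa2 (6.13) to Tdgf1 (11.16). These markers moved with the groups: 7 of 7 had a higher mean in 3XHMT than in control (1 past the threshold, 4 with the 18S set as a block), and their summed linear signal was 2151 to 3600 in control, 4424 to 6369 in 3XHMT and 2313 to 3079 in Cbx3 cells. In Cbx3 against control 3 were higher and 4 lower, with a median of -0.25: Nanog rose (mean 8.44, adjusted p = 0.0428), and Dppa2 fell with the block alone (-0.85, adjusted p = 0.0496). In 3XHMT against Cbx3 4 were higher and 3 lower, and Zfp42, Dppa4 and Dppa2 passed, all higher. The part of this shift in the values below was not tested. In bulk RNA, fewer cells of a type and less RNA per cell cannot be told apart.

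At their brightest probe sets Setdb1 and Atf7ip, an enzyme and its cofactor, stood on opposite sides of control in 3XHMT cells. Neither difference passed the threshold, and the dim Atf7ip probe set lay below control (88.9%). The promoters of Setdb1 and Atf7ip run from 250 bases before to 50 after the transcription start. They are shown because they belong to the pair whose signals parted most. They come from RefSeq (GRCm38.p6), read 5′ to 3′ on the gene's strand, and capitals mark each CG dinucleotide. Setdb1 lies at chr3:95357153-95357452 on the minus strand and Atf7ip at chr6:136518601-136518900 on the plus strand.
Setdb1: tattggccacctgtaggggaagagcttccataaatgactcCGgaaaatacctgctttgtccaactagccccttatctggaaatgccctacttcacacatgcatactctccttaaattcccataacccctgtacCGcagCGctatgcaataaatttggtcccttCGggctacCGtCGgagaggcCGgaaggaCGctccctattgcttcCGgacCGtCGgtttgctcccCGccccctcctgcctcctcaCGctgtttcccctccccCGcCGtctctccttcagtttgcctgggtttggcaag
Atf7ip: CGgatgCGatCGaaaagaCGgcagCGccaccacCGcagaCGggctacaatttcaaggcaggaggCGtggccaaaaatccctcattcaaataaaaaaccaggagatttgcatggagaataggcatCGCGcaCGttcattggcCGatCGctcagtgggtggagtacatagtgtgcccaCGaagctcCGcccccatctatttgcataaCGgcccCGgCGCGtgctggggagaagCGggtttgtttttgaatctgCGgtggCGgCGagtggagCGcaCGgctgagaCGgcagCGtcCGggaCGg
The Setdb1 promoter holds 15 CG dinucleotides and the Atf7ip promoter 29, where the median of 32851 promoters of this length is 7. Each holds the motif GGGCGG once and CCAAT once, counting both strands. GGGCGG is in 35.7% and CCAAT in 37.4% of all such promoters. All 7 genes had an entry in the promoter table. Ehmt1, with 34 CG dinucleotides, and Suv39h2, with 33, have the most among the 5 genes with a single entry. Ehmt2 and Wiz have more than 1 start site. No measurement here reads the promoters themselves.

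The targeted enzymes come first. Setdb1 has 3 probe sets. The brightest, 1451833_a_at, read 9.35, 9.53 and 9.62 on the control arrays, 8.60 and 9.08 on the 3XHMT arrays, and 9.30, 9.44 and 9.52 on the Cbx3 arrays. Both 3XHMT arrays lay below every other array, and the control and Cbx3 arrays interleaved. The 3XHMT mean was 63.2% of control, with a 95% confidence interval of 48.5% to 82.5%, which is a log2 difference of -0.66 ± 0.17 (SE). In the limma fit over all probe sets the difference did not pass the threshold of 0.05 (adjusted p = 0.556, unadjusted p = 0.00407). With the 18S set as a block it was -0.73 ± 0.13 (SE) and still just outside (adjusted p = 0.0520). It passed only when, in addition, each gene was reduced to its brightest probe set (adjusted p = 0.0295), a combination chosen after the data were seen. Against the control array of the same 18S set, 3XHMT 1 stood at 52.6% and 3XHMT 2 at 68.7%.

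The other Setdb1 probe sets were dimmer than the median probe set of the array and did not give the same picture. Probe set 1416670_at read 4.97, 5.52 and 4.87 in control, 4.54 and 4.27 in 3XHMT, and 4.68, 5.14 and 4.39 in Cbx3 cells. The 3XHMT arrays lay below every control array, at 60.9% of control on average (adjusted p = 1.00; 0.0525 with the block). One Cbx3 array lay between the 3XHMT arrays, and all 3 Cbx3 arrays were under their paired control, at 71.7% to 81.8%. Probe set 1458215_at showed no such step: it read 5.77, 5.29 and 5.61 in control against 5.45 and 5.52 in 3XHMT cells, 95.3% of control with an interval of 68.7% to 132%. Over the 8 arrays its Pearson correlation with the brightest Setdb1 probe set was 0.25, as a description over arrays that share groups and 18S sets.

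**Figure D1:**
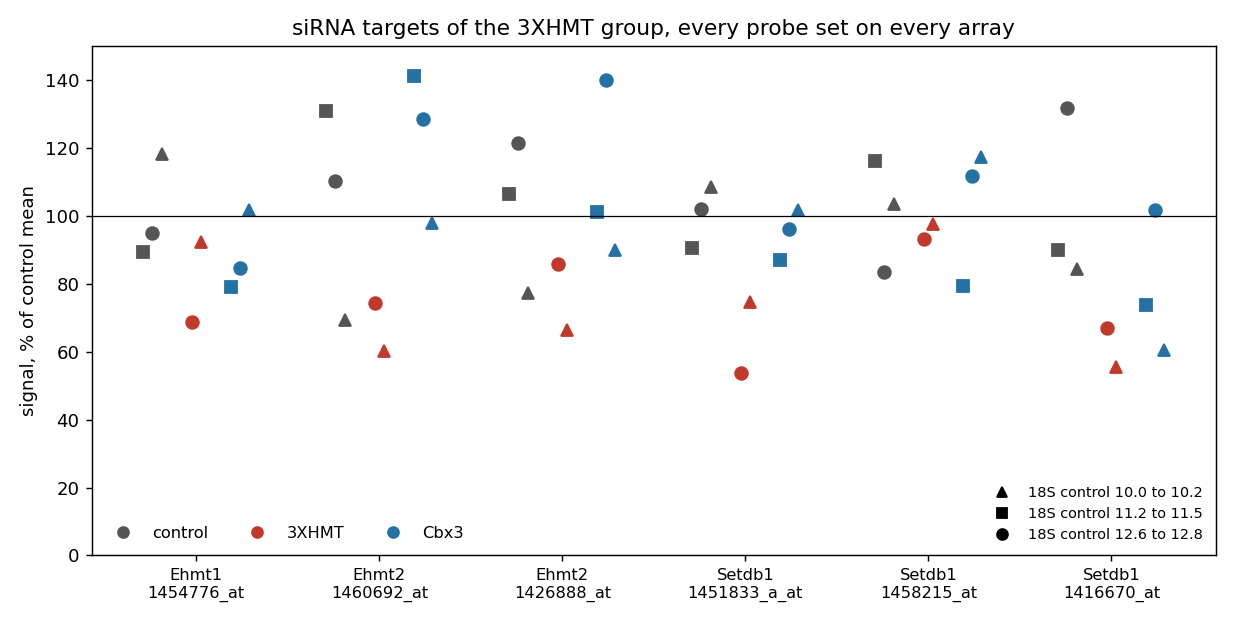
Signal of the 6 probe sets of Ehmt1, Ehmt2 and Setdb1 on each of the 8 arrays, as a percent of the mean of the control arrays (y axis, linear). Colours give the groups and marker shapes the 18S sets; the red 3XHMT points reach 53.6% for the brightest Setdb1 probe set and 60.1% for the brightest Ehmt2 probe set, and the lowest of all is that Setdb1 point.

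Ehmt2 has 2 probe sets, which correlated over the 8 arrays at 0.84. The brighter, 1460692_at, read 10.60, 10.35 and 9.68 in control, 9.78 and 9.48 in 3XHMT, and 10.71, 10.57 and 10.18 in Cbx3 cells. The control arrays spread widely (SD 0.47), and control 3 fell between the 3XHMT arrays, so the groups overlap. The 3XHMT mean was 66.8% of control with an interval of 42.9% to 104% (log2 difference -0.58 ± 0.28 SE, adjusted p = 1.00). Within the 18S sets 3XHMT 1 stood at 67.4% and 3XHMT 2 at 86.6% of its control, and the blocked difference was -0.43 ± 0.13 (SE, adjusted p = 0.294). The dimmer probe set, 1426888_at, read 7.05, 7.24 and 6.59 in control against 6.74 and 6.37 in 3XHMT cells, 75.5% of control (adjusted p = 1.00; 0.322 with the block). Its within-set values, 70.7% and 85.9%, were close to those of the brighter one.

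Ehmt1 has a single probe set, 1454776_at. It read 10.49, 10.58 and 10.90 in control, 10.11 and 10.54 in 3XHMT, and 10.32, 10.42 and 10.68 in Cbx3 cells. 3XHMT 1 was the lowest of the 8 arrays, while 3XHMT 2 lay between 2 controls. The mean was 79.6% of control with an interval of 58.8% to 108% (log2 difference -0.33 ± 0.19 SE, adjusted p = 1.00; -0.41 ± 0.11 and 0.217 with the block). Within the 18S sets the values were 72.3% and 78.2%.

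Residual signal thus depended on the reference. Against the mean of the control arrays, 3XHMT 1 was the lower of the 3XHMT arrays for Setdb1 (53.6% against 74.5%) and Ehmt1 (68.6% against 92.3%), and 3XHMT 2 for Ehmt2 (60.1% against 74.2%). Against the control array of its own 18S set, 3XHMT 1 was the lower at the brightest probe set of all 3 enzymes. Their intervals overlap one another, so these arrays do not order the 3 enzymes by depth of knockdown. For scale, the brightest Cbx3 probe set, annotated to Cbx3 and its pseudogene Cbx3-ps5, stood in Cbx3 cells at 42.8% of control (adjusted p = 0.0453; 0.0031 with the block).

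**Figure D2:**
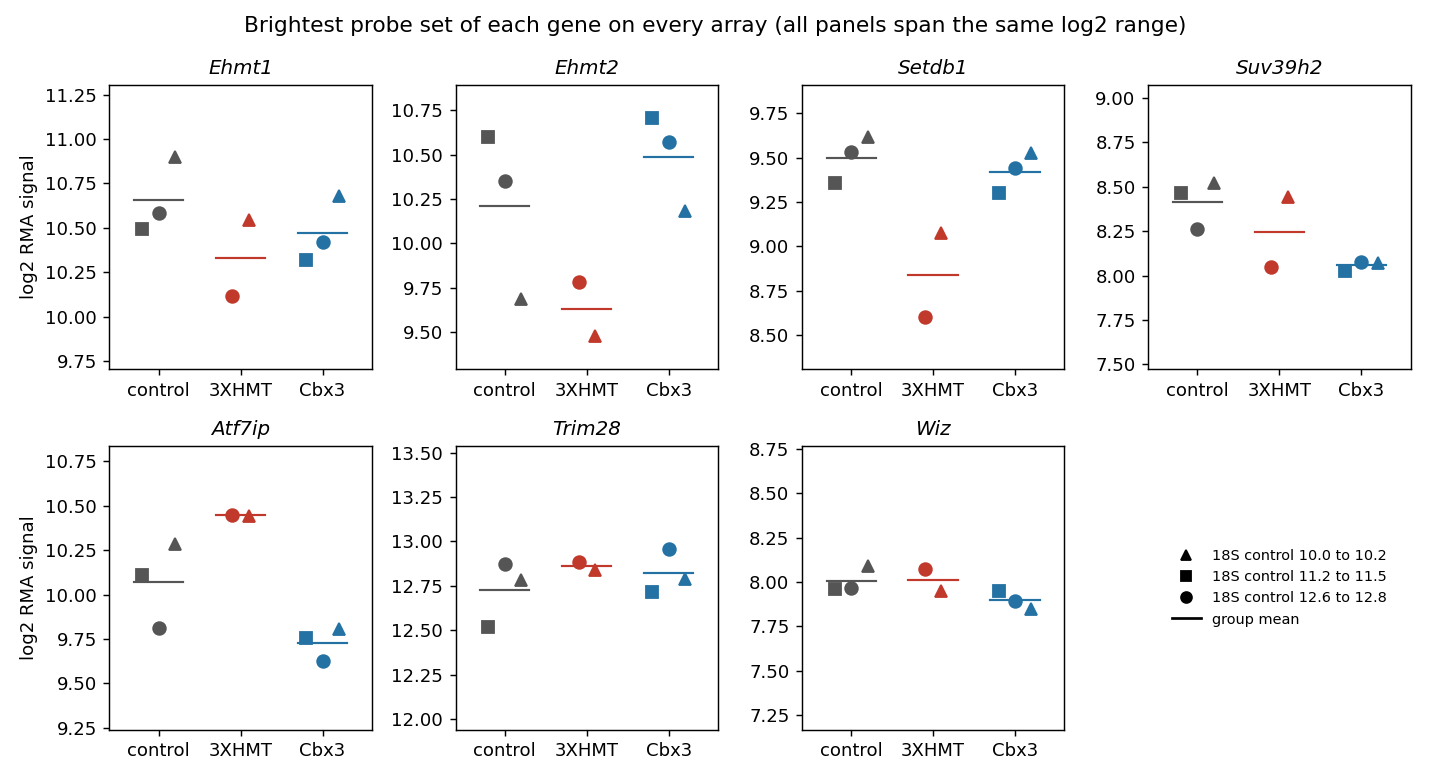
Log2 RMA signal of the brightest probe set of each of the 7 genes on all 8 arrays, by group, with marker shapes for the 18S sets and lines for group means; all panels span the same log2 range but start at their own level. Setdb1 is lowest on the 3XHMT arrays (8.60 and 9.08), Atf7ip is highest there (10.45 and 10.44), and Suv39h2 is lowest in the Cbx3 group mean (8.06).

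Among the untargeted genes, Atf7ip had the largest difference between 3XHMT and control cells. Its brightest probe set, 1454973_at, read 10.11, 9.81 and 10.28 in control, 10.45 and 10.44 in 3XHMT, and 9.75, 9.63 and 9.81 in Cbx3 cells. All 3XHMT arrays lay above all controls, and all Cbx3 arrays below them, Cbx3 3 only just (9.806 against 9.811 in control 2). Against control the 3XHMT mean was 129.9% (interval 102% to 166%, unadjusted p = 0.0382, adjusted p = 1.00; 0.355 with the block). The Cbx3 mean was 79.0% of control (interval 63.5% to 98.2%, unadjusted p = 0.0370, adjusted p = 0.630; 0.182 with the block).

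A second Atf7ip probe set, 1449192_at, read 8.32, 8.17 and 8.10 in control, 8.62 and 8.92 in 3XHMT, and 8.27, 8.22 and 8.16 in Cbx3 cells. Here too both 3XHMT arrays stood above all others, at 149% of control (interval 121% to 184%, log2 difference 0.58 ± 0.13 SE, unadjusted p = 0.0024, adjusted p = 0.436; 0.0900 with the block). The Cbx3 arrays, in contrast, mixed with the controls at 102%, so the lower Atf7ip signal of Cbx3 cells was seen at the brightest probe set and not at this one. Within the 18S sets the 3XHMT arrays stood at 156% and 112% of control at the brightest probe set, and at 137% and 177% at the second one. The dim probe set 1446323_at, at 4.33 to 4.98 on all arrays, was at 88.9% of control in 3XHMT and 85.3% in Cbx3 cells.

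Suv39h2, the remaining methyltransferase, was examined at 3 probe sets that correlated over the 8 arrays at 0.75 to 0.89. At 1422979_at it read 8.46, 8.26 and 8.52 in control, 8.05 and 8.44 in 3XHMT, and 8.03, 8.08 and 8.07 in Cbx3 cells. The Cbx3 arrays lay below all controls, and the 3XHMT arrays straddled the gap. Cbx3 cells stood at 78.1% of control (interval 63.2% to 96.3%, log2 difference -0.36 ± 0.13 SE, unadjusted p = 0.0265, adjusted p = 0.556; 0.144 with the block). The other Suv39h2 probe sets were at 77.0% and 83.5% of control in Cbx3 cells (adjusted p = 0.882 and 0.864). All 9 within-set values of the Cbx3 arrays were under 100%, from 64.6% to 97.9%. They come from correlated probe sets of a single gene on the same 3 array pairs, so they are not independent. In 3XHMT cells the values were 88.9%, 98.6% and 103% of control, and within the 18S sets at 86.3% to 97.2%.

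Trim28 was bright throughout. Its brightest probe set, 1456308_x_at, read 12.52, 12.87 and 12.78 in control, 12.88 and 12.84 in 3XHMT, and 12.72, 12.96 and 12.79 in Cbx3 cells. The groups overlapped, and the means were 109.8% (interval 87.7% to 137%) and 107% (87.4% to 131%) of control. The second probe set, 1415869_a_at, stood at 119% and 117% (adjusted p = 1.00 and 0.967).

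Wiz, whose product stabilizes the dimer of the targeted EHMT1 and EHMT2, read 7.96, 7.96 and 8.09 in control, 8.07 and 7.95 in 3XHMT, and 7.95, 7.89 and 7.85 in Cbx3 cells at 1418202_a_at. This was the tightest set of values among the probe sets of these genes in the limma fit, with an SE of 0.11 for 3XHMT against control. The 3XHMT mean was 100.4% of control (interval 84.3% to 119.6%), and the Cbx3 arrays lay just under all controls at 92.9% (79.5% to 109%). The dim probe set 1430330_at was at 85.5% and 94.9% of control.

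Of the 16 probe sets, 0 passed in 3XHMT against control, where 0.0555% of all probe sets did, and 0 in Cbx3 against control, where 0.0777% did. With the 18S set as a block the count was again 0 in both, against 0.699% and 3.43% of all probe sets. The paired fit of control and Cbx3 arrays alone also called 0, against 3.94%. At an unadjusted p under 0.05, 4 passed in 3XHMT against control (4.19% of all probe sets): Setdb1 1451833_a_at and 1416670_at, lower, and Atf7ip 1454973_at and 1449192_at, higher. In Cbx3 against control 2 passed at that level (7.23% of all), Suv39h2 1422979_at and Atf7ip 1454973_at, both lower. With the block 7 (10% of all) and 5 (15.1%) passed at that level. In 3XHMT these were the same 4 with Ehmt1 and both Ehmt2 probe sets, lower. In Cbx3 cells Suv39h2 1422979_at and 1433996_at, Atf7ip 1454973_at and Setdb1 1416670_at were lower, and Ehmt2 1460692_at was higher. Groups separated without overlap at 2 higher and 2 lower probe sets in 3XHMT against control (8.54% and 6.81% of all). They were the 4 that passed at an unadjusted p under 0.05 without the block. In Cbx3 against control 0 were higher (6.11% of all) and 4 were lower (5.84%): the Suv39h2 probe sets 1422979_at and 1436561_at, Atf7ip 1454973_at and Wiz 1418202_a_at. The median difference of the 16 probe sets was -0.12 in 3XHMT and -0.09 in Cbx3 against control, where all probe sets had medians of 0.00. The 16 include the 6 probe sets of the siRNA targets. For the 10 untargeted probe sets the median was 0.03 in 3XHMT (6 higher, 4 lower) and -0.17 in Cbx3 cells (3 higher, 7 lower). Of all probe sets, 50.7% and 51.2% were higher. Both comparisons use the same control arrays, so their values are not independent.

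3XHMT cells were also compared with Cbx3 cells directly. The control arrays do not enter the difference without a block, but with the 18S set as a block they help to estimate the set levels and so enter it. Here too 0 of the 16 probe sets passed without a block, where 0.528% of all probe sets did. With the 18S set as a block 4 passed, where 4.66% of all did: Atf7ip at 2 probe sets, higher in 3XHMT than in Cbx3 cells, and Setdb1 and Ehmt2 at their brightest probe sets, lower. At an unadjusted p under 0.05 the same 4 passed without the block (8.74% of all) and 6 with it (17.3%). The groups did not overlap at 3 higher (11.8% of all) and 3 lower (11.5%) probe sets. At Atf7ip 1454973_at the difference was 0.72 ± 0.15 (SE, adjusted p = 0.120), and 0.73 ± 0.14 with the block (adjusted p = 0.0176). At 1449192_at it was 0.55 ± 0.13 (adjusted p = 0.166), and 0.60 ± 0.13 with the block (adjusted p = 0.0372). For Setdb1 1451833_a_at the values were -0.58 ± 0.17 (adjusted p = 0.267) and -0.65 ± 0.13 with the block (0.0268). For Ehmt2 1460692_at they were -0.86 ± 0.28 (adjusted p = 0.344) and -0.71 ± 0.13 with the block (0.0200). Part of the Ehmt2 difference lay in Cbx3 cells, whose mean was 121% of control (adjusted p = 0.292 with the block). Within the 18S sets the Cbx3 arrays stood at 108%, 117% and 141% of control there. At Setdb1 1451833_a_at the Cbx3 mean was 94.7% of control. Ehmt1, the other target, differed by -0.15 ± 0.19 (adjusted p = 0.972; 0.361 with the block), and its mean was below control in both groups.

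These 4 differences, chosen because they passed with the block, had the same direction in both 18S sets that hold 3XHMT and Cbx3 arrays. The blocked fit draws on these same within-set differences, so the shared direction is a description and not separate support. Atf7ip 1454973_at was 0.82 and 0.64 log2 units higher within the sets, and 1449192_at 0.40 and 0.76 higher. Setdb1 differed by -0.84 and -0.45 and Ehmt2 by -0.79 and -0.70. Some uncalled probe sets also kept their direction, such as Ehmt1 (-0.30 and -0.14) and Wiz 1418202_a_at (0.18 and 0.10). Others did not, such as Suv39h2 1422979_at (-0.03 and 0.37). The calls with the block do not survive every omission of an array. Leaving out control 1 or Cbx3 1 gave the same fit, since only these arrays form their 18S set. The counts below take that fit as 2 of the 8 omissions. Atf7ip 1454973_at kept an adjusted p under 0.05 in 5 of 8 omissions and lost it without 3XHMT replicate 1 (0.128), Cbx3 replicate 2 (0.0555) or Cbx3 replicate 3 (0.0978). Ehmt2 kept it in 4, losing it without 3XHMT replicate 1 (0.132) or 2 (0.0621) and Cbx3 replicate 2 (0.0719) or 3 (0.129). Setdb1 kept it in 2, without control replicate 3 (0.0464) or 3XHMT replicate 2 (0.0335), and was at 0.0542 to 0.173 in the rest. Atf7ip 1449192_at kept it in 1, without 3XHMT replicate 1 (0.0422), and was at 0.0620 to 0.314 in the rest. Their differences kept their sign throughout.

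**Figure D3:**
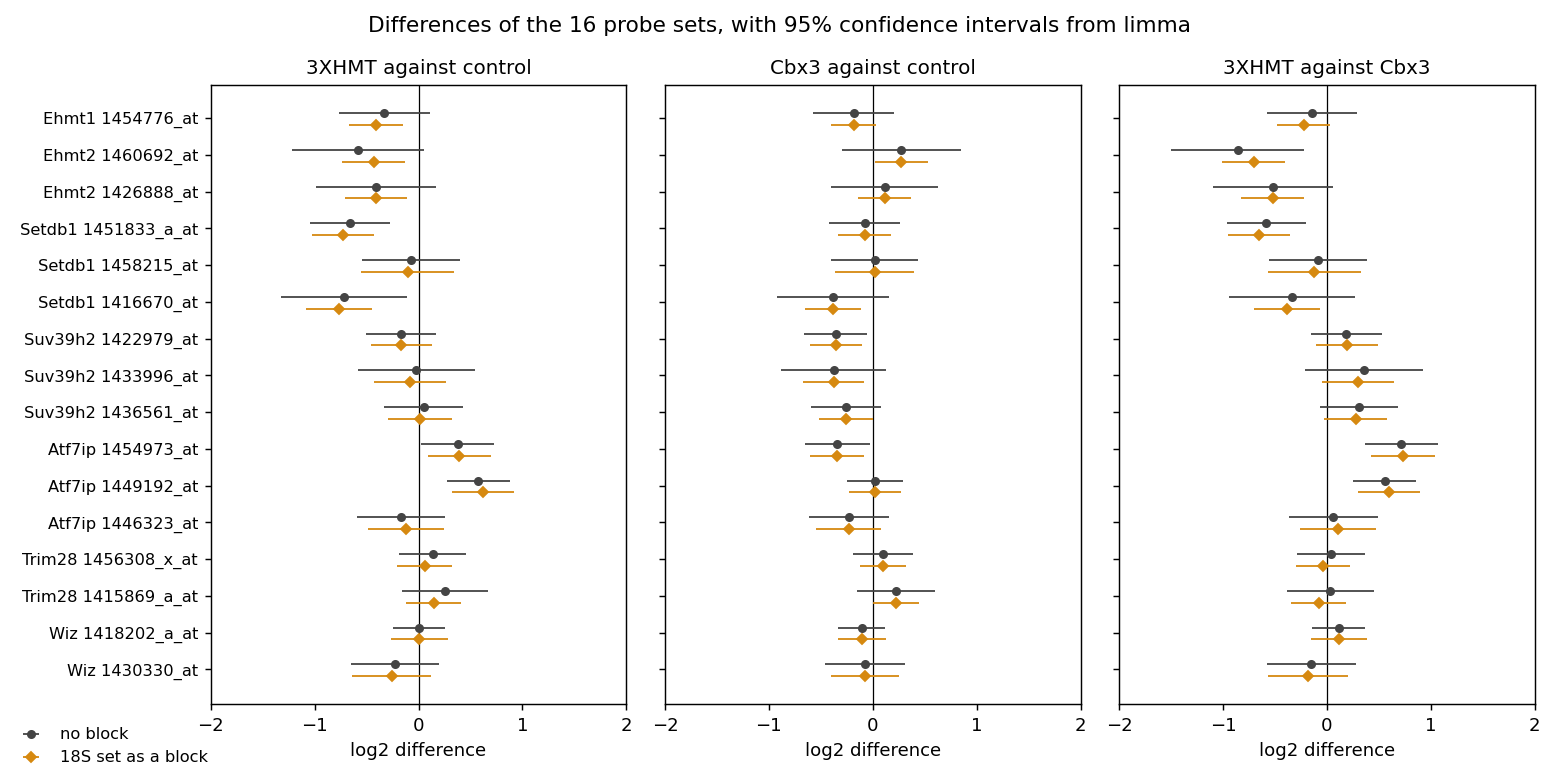
Log2 differences of the 16 probe sets in the 3 comparisons (x axis), with 95% confidence intervals from limma, without a block (circles) and with the 18S set as a block (diamonds). The 2 brighter Atf7ip probe sets lie to the right of 0 in 3XHMT against control (0.38 and 0.58), while the brightest Setdb1 probe set lies to the left (-0.66).

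Suv39h2 was 0.19, 0.36 and 0.31 log2 units higher in 3XHMT than in Cbx3 cells over its probe sets (adjusted p = 0.894, 0.853 and 0.716). Wiz 1418202_a_at differed by 0.11 (interval -0.14 to 0.36). Trim28 differed by 0.04 and 0.03, values that turn to -0.04 and -0.08 with the block. Among the 10 untargeted probe sets 9 were higher in 3XHMT than in Cbx3 cells, with a median of 0.15, where 50.1% of all probe sets were higher and their median was 0.00. With the block 7 of the 10 were higher, and several of them read the same gene. Fibroblast markers were split in this comparison, with 4 of 8 lower and 4 higher in 3XHMT than in Cbx3 cells and a median of -0.10. Col1a1, Col1a2, Pdgfrb and Prrx1 were the higher ones, by 0.04 to 0.27, and 0 of 8 passed without the block. Of the lower ones, Postn, Col3a1 and Twist1 passed with the block (adjusted p = 0.0339, 0.0316 and 0.0354). These markers were dim, and their summed linear signal was 306 to 347 in 3XHMT, 329 to 424 in Cbx3 and 281 to 356 in control cells. The part of that difference in the Atf7ip, Setdb1 and Ehmt2 values was not tested.

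Other genes of H3K9 methylation were taken from 5 lists: other writers, partners of the GLP and G9a dimer with general corepressors, partners of SETDB1 with the HUSH complex, HP1 proteins, and H3K9 demethylases. Of 47 genes listed, 42 were measured, and Suv39h1, the closest relative of Suv39h2, was not among them. In 3XHMT against control 24 were higher and 18 lower, 0 passed with or without the block, and the median difference was 0.03. At an unadjusted p under 0.05 Zfp809, a KRAB zinc finger gene whose product recruits TRIM28 to retroviruses, and the deacetylase gene Hdac2 were higher, by 0.49 ± 0.12 and 0.36 ± 0.12 (SE), and the demethylase gene Kdm3b was lower, by -0.32 ± 0.13. These are 3 of 42 genes, where 4.19% of all probe sets passed at that level, and their adjusted p were 0.462, 0.890 and 1.00. By list, 9 of 10 partners of SETDB1 and HUSH, 6 of 12 partners of GLP and G9a, 5 of 12 demethylases, 1 of 3 HP1 genes and 3 of 5 other writers were higher, where 50.7% of all probe sets were. Mphosph8, whose product is also a HUSH subunit, was counted with the partners of GLP and G9a. It was lower, by -0.12 and by -0.18 with the block.

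In Cbx3 against control 22 of the 42 were higher and 20 lower, with 0 passing, and with the block Atf7ip2 rose and Kdm7a fell, 2 of 42 where 3.43% of all probe sets passed. Cbx3, the siRNA target, is among the 42 at a dim probe set not shared with its pseudogene (adjusted p = 0.988). Its brightest probe set is shared and so lies outside these counts (adjusted p = 0.0453). Atf7ip2, a paralogue of Atf7ip, went from 6.82 in control to 7.62 in Cbx3 cells, 1.75-fold higher (adjusted p = 0.292; 0.0169 with the block), opposite in direction to Atf7ip at its brightest probe set. The demethylase gene Kdm7a stood at 9.57 in control and 8.82 in Cbx3 cells (adjusted p = 0.360, and 0.00639 with the block). Between 3XHMT and Cbx3 cells, the block called Hdac2, Kdm7a and Phf8 higher and Atf7ip2 lower in 3XHMT cells (adjusted p = 0.0178, 0.0266, 0.0421 and 0.0282). These are 4 of 42 genes, where 4.66% of all probe sets passed, and 0 passed without the block. Hdac2 came closest there, with a log2 difference of 0.67 ± 0.12 (SE, adjusted p = 0.0619).

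**Figure D4:**
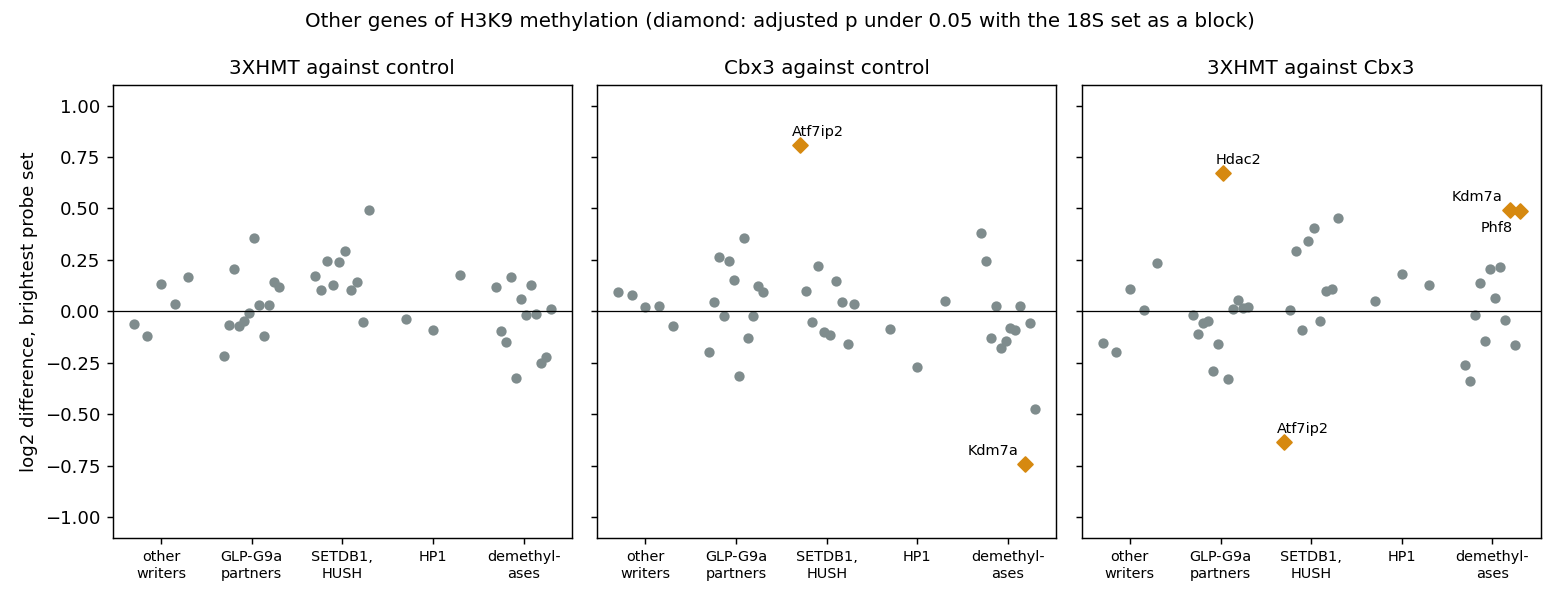
Log2 differences of 42 other H3K9 genes at their brightest probe set with a single symbol (y axis), by list and comparison, each point 1 gene. Diamonds with names passed with the 18S set as a block; 0 passed in 3XHMT against control. Cbx3 itself appears at its dim unshared probe set.

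For each of the 7 genes the brightest probe set was also set against 11525 other genes at or above the median signal, to describe which followed it most closely over the 8 arrays. Setdb1 was followed by Peli1, Kank1 and Spats2l (Pearson r of 0.98, 0.98 and 0.97), which differed by -0.37, -0.70 and -1.08 between 3XHMT and control. Atf7ip was followed by Ttl, Pptc7 and Flrt2 (0.98, 0.98 and 0.97). Against control they differed by 0.23, 0.15 and 0.70 in 3XHMT cells and by -0.35, -0.09 and -0.93 in Cbx3 cells. The nearest genes were Pou6f1 for Ehmt2 (0.99), Cnst for Ehmt1 (0.97), Neil3 for Suv39h2 (0.98), Cyp26a1 for Trim28 (0.98) and Ankrd13c for Wiz (0.97). These r values describe 8 arrays that share groups and 18S sets.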

How the data were processed

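Expression was measured on 8 arrays of pre-iPSCs. The authors deposited log2 values for 45101 probe sets, and the submitters' processing notes name RMA. Quantile normalization, a step of RMA, removes shifts shared by most genes. No version or setting is given in the sources used here. Names come from the platform annotation, and 64 array controls were left out of the tests.

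The main test was limma 3.58.1 (R 4.3.3), with a mean per group over the 8 arrays, two-sided, 5 residual degrees of freedom, Benjamini-Hochberg adjustment over 45037 probe sets and a threshold of 0.05. The fit was tested on simulated data. Arrays were divided into 3 sets at the 2 widest gaps of the middle 18S control, and the set was tried as a block. Same-numbered control and Cbx3 arrays deviated together (correlations of 0.51, 0.62 and 0.74), and same-numbered 3XHMT and control arrays did not (0.05 and -0.66), so the replicate number pairs the former only, and there it equals the 18S set. The genes named were drawn from the 7 genes, Cbx3 and the 3 most alike genes per member. They were also drawn from genes of the lists past the threshold or with the 2 lowest p-values. Not all of these are named. Mphosph8, Suv39h1 and the marker genes were named outside this rule. The members, lists and the 18S sets were chosen with earlier results of these data known. The marker lists also held 6 blood genes, of which 0 passed in any comparison.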

Additional observations from a re-analysis of the deposited data

How the results depend on the processing

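All directions and calls are limma's at an adjusted p of 0.05. The number of probe sets called in 3XHMT against control was 25, and became 315 with the 18S set as a block, 67 with the replicate block, 3 with only the 2 groups compared, 11 without dim probe sets, 42 with 1 probe set per gene, 320 with that and the 18S block, and 1 to 23 with 1 array left out. In Cbx3 against control 35 became 1547 with the 18S block, 153 with the replicate block, 1776 with the replicate block on control and Cbx3 arrays only, 14 with only the 2 groups, 81 with 1 probe set per gene, 1199 with that and the 18S block, and 0 to 14 with 1 array left out. In 3XHMT against Cbx3 238 became 2099 with the 18S block, 433 with the replicate block, 80 with only the 2 groups, 1660 with 1 probe set per gene and the 18S block, and 6 to 186 with 1 array left out. The cause of these shifts was not tested.

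Setdb1 1451833_a_at kept its sign in all 25 settings in 3XHMT against control, and passed in 1, at -0.73 with the 18S block and 1 probe set per gene. That setting, the 18S block with an array left out and the replicate block on control and Cbx3 arrays only were chosen after seeing the data. Ehmt2 1460692_at passed in 3XHMT against Cbx3 with the replicate block (-1.07). Same-numbered 3XHMT and Cbx3 arrays lie in different 18S sets (correlations of their deviations 0.22 and -0.59). The replicate number does not pair them, so this call is no separate support. The replicate block gave no member a call against control.

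Small differences changed sign, none past the threshold. In 3XHMT against control, Suv39h2 1433996_at was at 0.10 with the replicate block. With 1 array left out, Setdb1 1458215_at ran from -0.20 to 0.038, Suv39h2 1422979_at from -0.37 to 0.028, 1433996_at from -0.36 to 0.32, 1436561_at from -0.12 to 0.21, and Wiz 1418202_a_at from -0.057 to 0.069. In Cbx3 against control, Setdb1 1458215_at was at -0.0038 with cyclic loess and ran from -0.11 to 0.20 with 1 array left out. Ehmt2 1426888_at ran from -0.070 to 0.26, Atf7ip 1449192_at from -0.026 to 0.083, Trim28 1456308_x_at from -0.0066 to 0.17, and Wiz 1430330_at from -0.21 to 0.10. In 3XHMT against Cbx3, Trim28 was at -0.038 (1456308_x_at, with the 18S block, all probe sets or 1 per gene) and -0.079 (1415869_a_at), and Atf7ip 1446323_at at -0.020 with the replicate block. With 1 array left out, Ehmt1 ran from -0.36 to 0.069, Setdb1 1458215_at from -0.26 to 0.019, Suv39h2 1422979_at from -0.0099 to 0.39, Atf7ip 1446323_at from -0.043 to 0.16, and Trim28 from -0.013 to 0.11 and from -0.10 to 0.17. With 2 arrays in the 3XHMT group, leaving out 1 assumes that the lone array varies like the others. Signal below the array median limits the dim probe sets.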
